A study of Danio rerio with 6 samples.

Results

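The autophagy genes were the rows of the deposited gene table whose symbol begins with the name of an autophagy component (the atg genes, ulk1 and ulk2, becn, the gabarap and map1lc3 genes, the wipi and wdr45 genes, sqstm1, optn, nbr1, ambra1, rb1cc1, tfeb, uvrag, epg5, vmp1, pik3c3 and pik3r4) or whose description contains the word autophagy. This took 49 of 24826 genes, 45 by the symbol and 4 (dram1, dram2b, soga1 and LOC110437943) through the description alone. All 49 passed the filter on low counts, as did 23761 genes of the table. Their RNA was measured in pools of 80 whole wild-type zebrafish larvae, with 3 pools per group. The control group was kept in a surfactant medium with 0.001% bovine serum albumin, and the other group was exposed to a tire wear particle leachate named TWP 700. For the leachate samples no albumin content is recorded. The number 700 is a treadwear grade in the sample titles and a concentration in the design text, and serves here only as the group's name. Both groups were exposed from 4 to 168 h after fertilization, 200 eggs to a dish, with a move to clean dishes at 72 h. The labels do not say at what hour the larvae were collected. Samples are called controls 1 to 3 and leachate 1 to 3.

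Autophagy wraps cytoplasm, damaged organelles or protein aggregates in a double membrane and delivers them to the lysosome for breakdown. The ULK kinase complex starts the process, a class III phosphatidylinositol 3-kinase marks the growing membrane, and ATG9 vesicles, ATG2 and the WIPI proteins supply and organise its lipid. Ubiquitin-like ATG8 proteins, the LC3 and GABARAP families, are then joined to the membrane by a conjugation machinery, and cargo receptors such as sequestosome 1 tie the cargo to them. The measurements here are RNA levels of these genes, and the activity of the process itself was not measured.

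Autophagy genes that differed between the groups were lower in larvae exposed to the leachate. They included genes for starting the process (atg101, ulk1b), for membrane supply (atg9a, atg9b, wdr45), for ATG8 proteins (gabarapb, map1lc3a) and their protease (atg4b), and for cargo receptors (nbr1a, sqstm1). Among those named, the calls of ulk1b, map1lc3a and sqstm1 did not hold in every alternative setting tried. Of the 49 genes, 19 were lower and 0 were higher at an adjusted p under 0.05 in edgeR's quasi-likelihood test, against a background of 7.29% of all tested genes called lower, 7.87% called higher and 15.2% called in either direction. The 19 make up 38.8% of the autophagy genes. At an unadjusted p under 0.05, 29 were lower and 0 higher, against 14.6% and 15.2% of all tested genes. DESeq2 and limma-voom also called 0 higher. The median log2 fold change of leachate over control was -0.34 over the 49 genes and -0.0026 over all genes tested. The changes were modest in size: among the 19 called genes the log2 fold change lay between -1.003 (atg4b) and -0.36 (atg7), and atg4b, 50.1% lower, was the single one changed by 2-fold or more. Among the 30 genes not called it ranged from -0.65 to 0.42, with 21 below 0 and 9 above. In scaled counts, every leachate pool lay below every control pool in 31 of the 49 genes, as in 17.1% of all tested genes. In 1 gene (atg4db) every leachate pool lay above, as in 17.9% of all tested genes, and groups did not overlap in either direction in 35.1%. In pools of whole larvae, fewer cells of a type and less RNA per cell cannot be told apart.

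**Figure D1:**
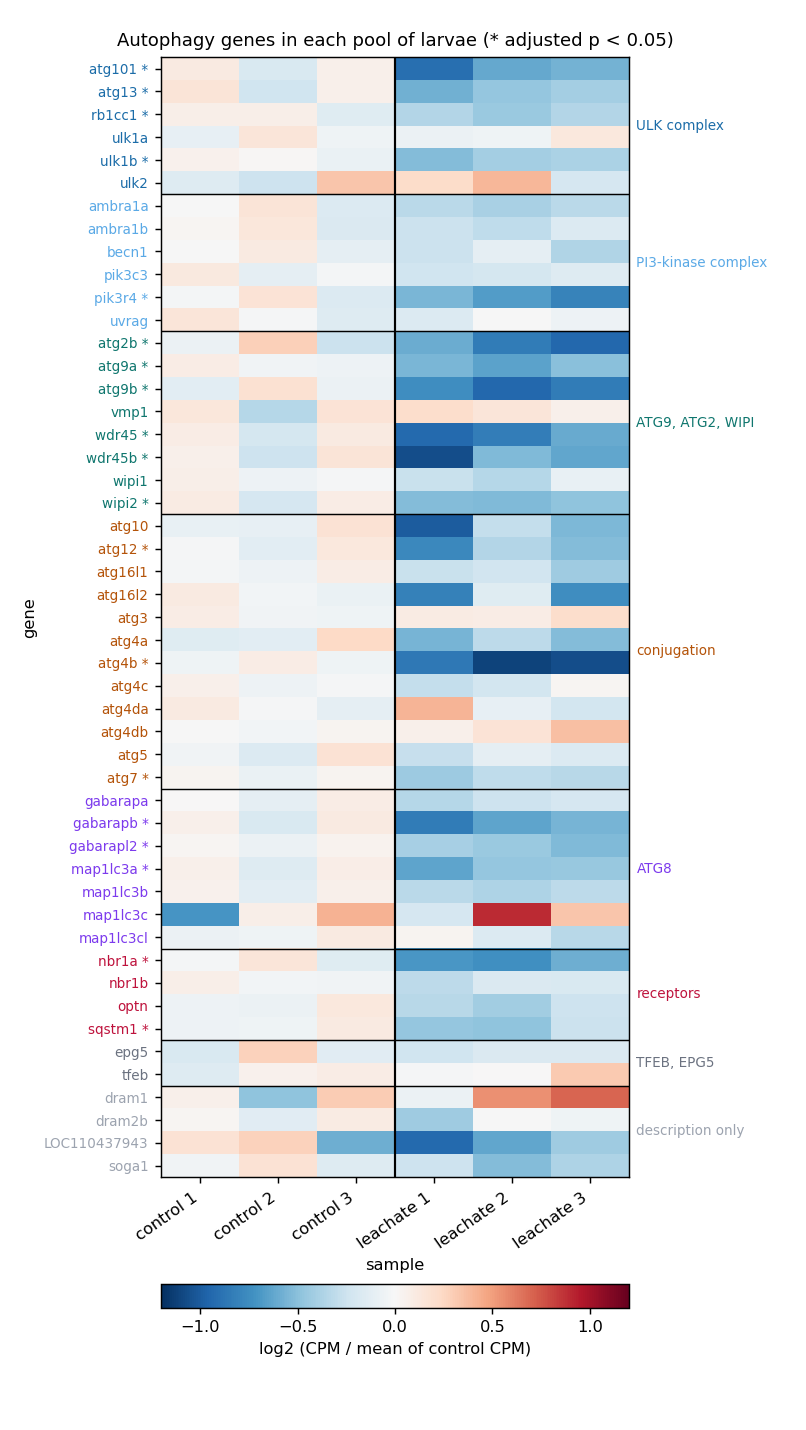
Each row is an autophagy gene, each column a pool of larvae, and the colour is the log2 ratio of its CPM (counts scaled to TMM library sizes) to the mean of the 3 controls, with rows grouped by role and asterisks at genes with an adjusted p under 0.05. The 19 marked rows are blue in all 3 leachate pools, while ulk2, map1lc3c and dram1 vary within both groups.

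**Figure D2:**
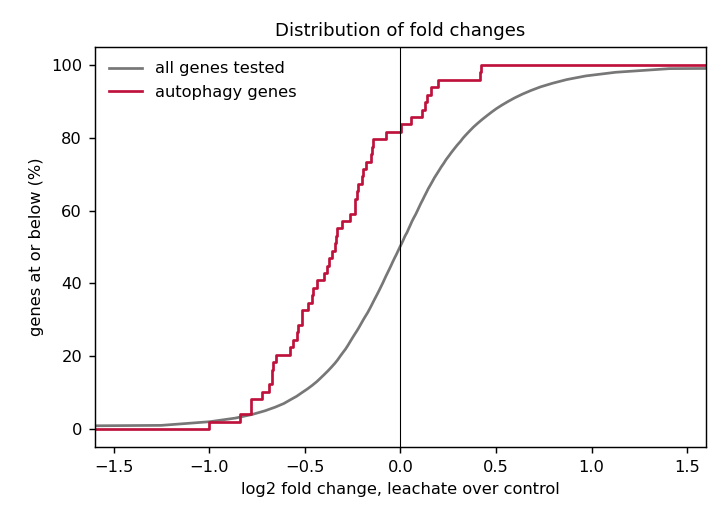
The horizontal axis is the log2 fold change between groups (leachate over control) and the vertical axis the percentage of genes at or below it, for the 49 autophagy genes (red) and all 23761 tested genes (grey). The red curve lies to the left of the grey one except at its lowest end, with medians of -0.34 and -0.0026.

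The deposited counts summed to between 37030725 and 48431952 per sample, and the autophagy genes took between 0.174% and 0.226% of them. The lowest count of any of the 49 genes in any sample was 16. Control 2 and leachate 1 stood apart from the other pools of their groups on the second principal component and in their long genes: in the longest decile of genes the median log2 deviation was 0.184 and 0.0959 in these samples and between -0.117 and -0.0345 in the others. Without these 2 samples, 23 autophagy genes were lower (46.9%, against 10.9% of all tested genes) and 0 higher (against 2648 of 23855 genes). Markers of muscle, liver, brain, pancreas, intestine, blood, retina and lens were all detected in every pool, apart from 1 pancreas and 3 blood symbols that the table does not hold. The summed CPM of 5 retina and lens markers was 3711 to 4725 in controls and 2309 to 2751 in leachate pools, with 4 of 5 lower. That of 6 neuronal markers was 697 to 774 against 784 to 832, with 2 of 6 higher. That of 4 pancreas markers was 3729 to 8799 against 3377 to 4355, which overlap, with 1 of 4 lower. The sums of 8 muscle markers (43650 to 54840 against 34540 to 48260) and 7 liver markers (3767 to 4404 against 3956 to 5181) overlapped, with 1 of 8 and 1 of 7 higher, as did those of 5 intestine markers (968 to 1958 against 1856 to 2402), with 1 of 5 higher and 1 lower, and of 2 blood markers (299 to 342 against 322 to 355.5), with 1 of 2 higher. Beside these counts of called markers, 7.29% of all tested genes were called lower and 7.87% higher. The part of these tissue markers in the autophagy gene differences was not tested.

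The ULK kinase complex phosphorylates the next components and is the point where nutrient signals reach autophagy. Of its 6 measured genes, 4 fell (66.7%, against 7.29% of all tested genes called lower). These were atg101, atg13, ulk1b and rb1cc1, which encode 3 regulatory subunits and 1 of the kinases. atg101 (gene 567680), a stabiliser of the complex, was at 31.8, 26.0 and 30.7 CPM in controls 1 to 3 and at 15.8, 19.2 and 19.9 CPM in leachate 1 to 3. The groups stand well apart, with a log2 fold change of -0.69 ± 0.13 (SE) and an adjusted p = 0.00484. ulk1b (gene 558848) was at 39.4, 38.4 and 36.0 against 26.4, 28.6 and 29.1 CPM, with log2 -0.44 ± 0.10 and adjusted p = 0.0154. atg13 (gene 393405), a subunit through which TORC1 acts, was at 102 ± 13.9 against 72.9 ± 4.17 CPM (mean ± SD, n = 3), with log2 -0.48 ± 0.13 and adjusted p = 0.027. The scaffold gene rb1cc1 (gene 100332174) was at 84.6 ± 7.14 against 64.8 ± 2.39 CPM, with log2 -0.38 ± 0.11 and adjusted p = 0.0396. The other 2 kinase genes did not pass the test. ulk1a was at 24.1, 28.4 and 24.9 against 24.5, 24.9 and 28.1 CPM (adjusted p = 0.99), and its groups lie over each other. ulk2, the most abundant kinase gene by deposited TPM, a level per gene length, was at 83.8, 78.5 and 117 against 108, 123 and 80.9 CPM (adjusted p = 0.617), and its pools vary within both groups. The call of atg101 held in all 17 alternative settings. The other 3 calls were lost with library totals as the scaling, with the replicate number as a block, and without control 1, leachate 2 or leachate 3, each taken alone. The calls of atg13 and rb1cc1 were also lost without leachate 1, and that of atg13 without control 3, with adjusted p up to 0.127 for ulk1b, 0.129 for atg13 and 0.254 for rb1cc1. Without control 1, leachate 2 or leachate 3, and with library totals, 1 of the 6 genes was called lower (against 3.65% to 3.87% of all tested genes). Without leachate 1 it was 2 (against 5.38%).

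The class III phosphatidylinositol 3-kinase complex makes the lipid that recruits later components. Of its 6 measured genes, 1 fell (16.7%, against 7.29% of all tested genes). All 6 had a log2 fold change below 0, as had 11948 of all 23761 tested genes. The gene that fell, pik3r4 (gene 564088), encodes the regulatory kinase-like subunit that anchors the complex. It was at 41.7, 47.3 and 37.8 CPM in controls and 28.8, 26.6 and 24.3 CPM in leachate pools (log2 change -0.67 ± 0.12, adjusted p = 0.00388). The groups did not overlap in CPM but did in TPM, and the call held in all 17 alternatives. The catalytic subunit gene pik3c3 was at 26.1 ± 2.08 against 22.7 ± 0.667 CPM (log2 change -0.20 ± 0.11, adjusted p = 0.238). becn1, which encodes Beclin 1, the most abundant member of this group by TPM, was at 22.4, 24.3 and 20.9 against 18.8, 20.9 and 17.6 CPM (adjusted p = 0.198). The Beclin regulator genes ambra1a (log2 change -0.34 ± 0.12, adjusted p = 0.0679) and ambra1b (log2 change -0.24 ± 0.12, adjusted p = 0.195) and the Beclin partner gene uvrag (log2 change -0.077 ± 0.14, adjusted p = 0.757) did not pass the test.

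The genes for membrane supply and the lipid-binding WIPI family had 6 of 8 members called lower (75%, against 7.29% of all tested genes). This was the highest share of the role groups, ahead of the ULK complex at 66.7%, and the median log2 fold change was -0.64. atg9b (gene 791223) and atg9a (gene 100009663) encode the transmembrane protein whose vesicles seed the membrane. atg9b was at 151, 187 and 157 CPM in controls and 98.1, 85.9 and 92.4 CPM in leachate pools (log2 change -0.84 ± 0.13, adjusted p = 0.00159). atg9a was at 81.4, 74.3 and 73.3 against 52.1, 49.0 and 53.8 CPM (log2 change -0.56 ± 0.11, adjusted p = 0.00528). In CPM both copies were lower in each leachate pool than in any control, as in 17.1% of all tested genes. In TPM the groups of atg9a overlapped (18.75 in leachate 1 and 18.62 in control 3). atg2b (gene 100000277), a lipid transfer protein gene, was at 11.1 ± 2.18 against 6.44 ± 0.808 CPM (log2 change -0.78 ± 0.17, adjusted p = 0.00999). wdr45 (gene 393200) was at 41.9, 34.0 and 42.3 against 20.7, 22.1 and 25.9 CPM (log2 change -0.78 ± 0.13, adjusted p = 0.00244). Its relative wdr45b (gene 393210) was at 81.4, 65.5 and 86.5 against 37.3, 53.8 and 50.5 CPM (log2 change -0.72 ± 0.16, adjusted p = 0.0108). These 2 belong to the WIPI family, which reads the lipid mark and binds ATG2 proteins. wipi2 (gene 437002), which in mammals recruits the conjugation machinery, was at 105 ± 12.2 against 73.7 ± 1.23 CPM (log2 change -0.51 ± 0.12, adjusted p = 0.0154). wipi1 (log2 change -0.23 ± 0.11, adjusted p = 0.209) and vmp1 (log2 change 0.14 ± 0.14, adjusted p = 0.568), a membrane protein gene of the endoplasmic reticulum, did not pass. The calls of atg9a, atg9b and wdr45 held in all 17 alternatives. That of wdr45b was lost without control 1 (adjusted p = 0.0519), that of atg2b without leachate 2 or leachate 3 (up to 0.052), and that of wipi2 without control 1, leachate 2 or leachate 3 and with library totals (up to 0.081). The count was 4 of 8 without control 1, leachate 2 or leachate 3 (against 3.75% to 3.87% of all tested genes).

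**Figure D3:**
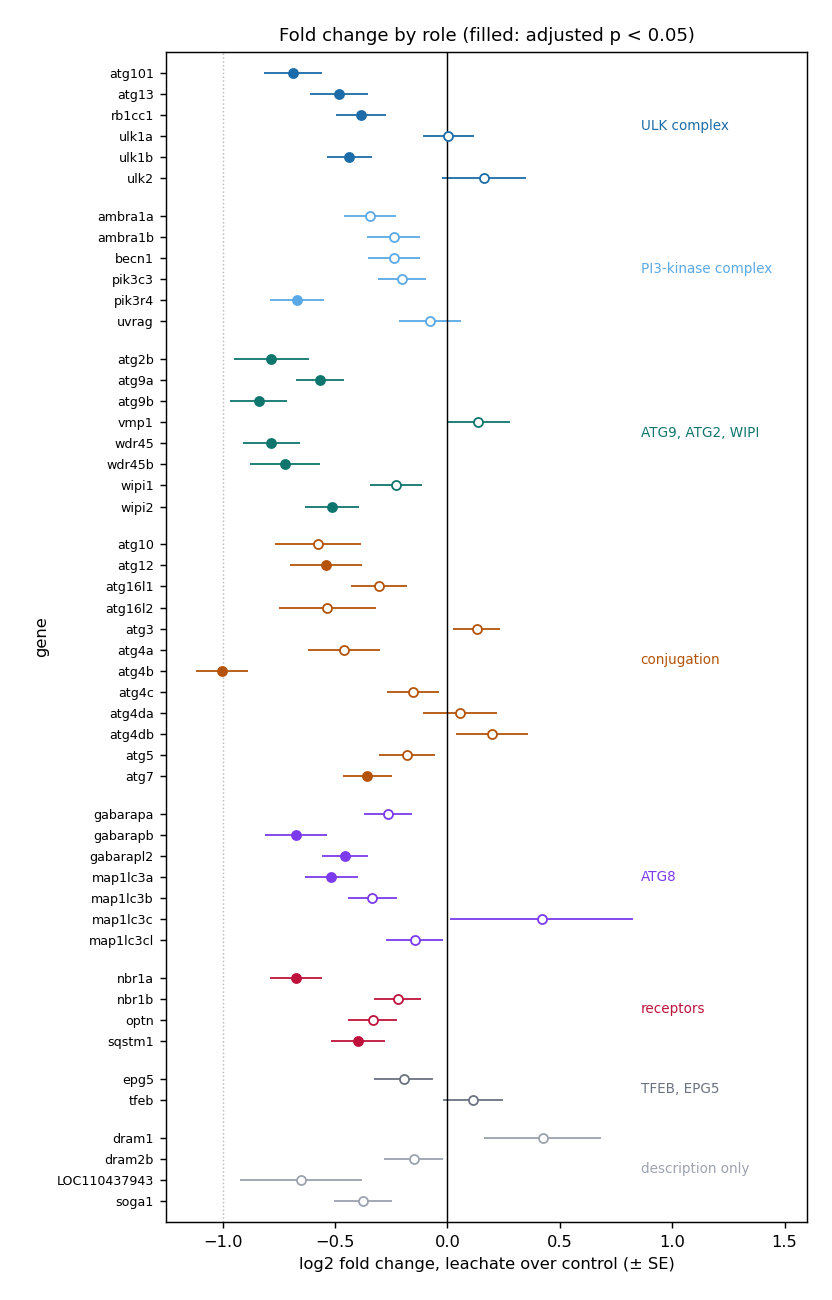
The horizontal axis is the log2 fold change (leachate over control) ± SE, and each row is a gene, grouped and coloured by role, filled where the adjusted p was under 0.05. The filled points lie between -1.003 (atg4b) and -0.36 (atg7), and the ATG9, ATG2 and WIPI group has 6 of its 8 points filled.

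The conjugation machinery consists of enzymes that work like those of ubiquitin transfer, and of the ATG4 proteases that trim ATG8 proteins and release them again. Of its 12 measured genes, 3 fell (25%, against 7.29% of all tested genes): atg4b, atg12 and atg7. atg4b (gene 448859) had the lowest log2 fold change of the 49 genes, at percentile 1.97 of all tested genes. It was at 27.3, 30.2 and 27.4 CPM in controls and 15.6, 13.1 and 13.6 CPM in leachate pools (log2 change -1.003 ± 0.12, adjusted p = 2.92e-04), and the 2 groups are tight and far apart. Its call held in all 17 alternatives. The other ATG4 genes did not pass: atg4a had log2 -0.46 ± 0.16 (adjusted p = 0.0772), atg4c -0.15 ± 0.12 (adjusted p = 0.417), atg4da 0.055 ± 0.17 (adjusted p = 0.864) and atg4db 0.20 ± 0.16 (adjusted p = 0.454). By TPM, atg4b made up 44.2%, 46.2% and 43.0% of the summed ATG4 level in controls and 33.5%, 29.0% and 28.4% in leachate pools. It was the leading ATG4 gene in every control, while in leachate 3 atg4c was above it at 31.0%.

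The ubiquitin-like protein gene atg12 (gene 570965) was at 7.6, 7.02 and 8.39 against 4.48, 6.03 and 5.33 CPM (log2 change -0.54 ± 0.16, adjusted p = 0.0423). atg7 (gene 100333016), the activating enzyme for both conjugation routes, was at 20.3, 18.8 and 20.3 against 14.7, 16.1 and 15.7 CPM (log2 change -0.36 ± 0.11, adjusted p = 0.0494), just inside the threshold. Both calls were lost without control 1, control 3, leachate 1, leachate 2 or leachate 3, each alone, with library totals and with the replicate number as a block. That of atg7 was also lost with upper quartile scaling and with no filter on low counts. The adjusted p over these settings reached 0.12 for atg12 and 0.266 for atg7. The group's count was 1 of 12 without control 1, control 3, leachate 1 or leachate 3 (against 3.8% to 5.52% of all tested genes). The genes of the 2 transfer enzymes did not pass: atg10 was at 7.43 ± 0.814 against 4.98 ± 1.2 CPM (adjusted p = 0.0641), and atg3 at 24.2 ± 1.35 against 26.5 ± 1.23 CPM (adjusted p = 0.45). atg5, whose product is joined to ATG12, was at 18.2, 16.8 and 21.2 against 15.5, 17.4 and 16.7 CPM (log2 change -0.18 ± 0.12, adjusted p = 0.369), and its groups overlap. The scaffold genes atg16l1 (log2 change -0.31 ± 0.12, adjusted p = 0.124) and atg16l2 (log2 change -0.53 ± 0.22, adjusted p = 0.121) did not pass. Nor did LOC110437943, described in the table as like ATG16-2, at 2.59 ± 0.758 against 1.65 ± 0.285 CPM (adjusted p = 0.131). Reads of similar copies such as this one and atg16l2 may have been split by the counting, which is not described in the sources used here.

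The ATG8 genes encode the proteins that coat the membrane. Of 7 measured genes 3 fell (42.9%, against 7.29% of all tested genes), all of them among the 8 autophagy genes with the highest TPM in controls. gabarapb (gene 793200) stood first by TPM, at 239, 194 and 204 TPM in controls, more than the next gene, map1lc3a (87.6, 72.4 and 73.4 TPM), in every pool. In counts gabarapb was at 252, 213 and 259.9 CPM against 135, 155 and 164 CPM (log2 change -0.67 ± 0.14, adjusted p = 0.00739), and its call held in all 17 alternatives. map1lc3a (gene 406466) was at 106, 91.7 and 108 against 65.7, 73.9 and 74.2 CPM (log2 change -0.52 ± 0.12, adjusted p = 0.0135). gabarapl2 (gene 403036) was at 33.7, 31.6 and 34.2 against 25.1, 24.4 and 22.9 CPM (log2 change -0.46 ± 0.10, adjusted p = 0.0121). The calls of these 2 were lost without control 1, leachate 2 or leachate 3 and with library totals (adjusted p up to 0.11 for gabarapl2 and 0.0695 for map1lc3a). This left 1 called ATG8 gene in each of those settings (against 3.65% to 3.87% of all tested genes). map1lc3b, the gene of the LC3 protein most used as a marker of autophagosomes, was at 100.2, 88.4 and 100.5 against 77.2, 74.7 and 77.5 CPM. Its groups did not overlap in CPM but did in TPM, and the test gave log2 -0.33 ± 0.11 and adjusted p = 0.062. It passed in 4 alternatives: by DESeq2, with the gene length trend removed, when control 2 was left out, and when leachate 1 was left out with it. gabarapa was at 64.2, 59.4 and 68.0 against 50.2, 53.6 and 55.7 CPM (adjusted p = 0.125). map1lc3cl was at 93.5 ± 6.35 against 84.5 ± 10.8 CPM (adjusted p = 0.487). map1lc3c was the least abundant of the 49 genes by TPM and was at 0.544 ± 0.199 against 0.722 ± 0.27 CPM (log2 change 0.42 ± 0.41, adjusted p = 0.545), where counting limits what can be seen. Summed over the 7 genes, the ATG8 level was 537, 454 and 460 TPM in controls and 419, 369 and 378 TPM in leachate pools. The share of gabarapb in that sum was 44.5%, 42.6% and 44.4% in controls and 36.1%, 39.1% and 40.5% in leachate pools.

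Cargo receptors hold ubiquitinated cargo with one part and ATG8 proteins with another. Of 4 measured genes 2 fell (50%, against 7.29% of all tested genes). In CPM every leachate pool lay below every control in all 4, as in 17.1% of all tested genes. In TPM the groups of optn and nbr1b overlapped. In mammals NBR1 carries protein aggregates and peroxisomes. For nbr1a (gene 337168) the levels were 70.5, 79.1 and 64.8 CPM against 43.9, 43.0 and 47.5 CPM (log2 change -0.67 ± 0.11, adjusted p = 0.00297), and its call held in all 17 alternatives. The gene of sequestosome 1, sqstm1 (gene 406452), had 112, 113 and 127 against 84.8, 84.0 and 98.2 CPM, a log2 fold change of -0.40 ± 0.12 with adjusted p = 0.0435. This call did not hold without control 1, control 3, leachate 1, leachate 2 or leachate 3, each alone (adjusted p up to 0.179). Nor did it hold with library totals, with the robust option off or with the replicate number as a block. This left 1 of 4 receptor genes called in each of those settings (against 3.65% to 7.12% of all tested genes). Without control 2, 3 of 4 were called (against 8.33%). optn, the optineurin gene, was at 31.4, 31.2 and 35.9 against 26.1, 24.5 and 27.7 CPM (log2 change -0.33 ± 0.11, adjusted p = 0.0612). nbr1b was at 70.7, 66.2 and 65.7 against 54.4, 59.9 and 59.6 CPM (log2 change -0.22 ± 0.11, adjusted p = 0.188).

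**Figure D4:**
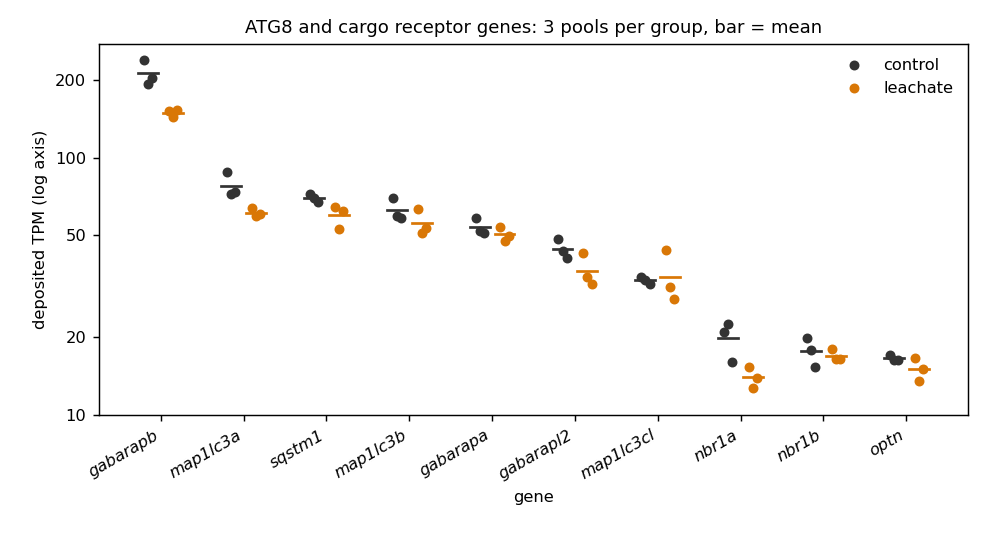
The vertical axis is the deposited TPM on a log scale, the points are the 3 control (black) and 3 leachate (orange) pools, and the bars are group means, for 6 of the 7 ATG8 genes and the 4 cargo receptor genes, from the most to the least abundant. gabarapb lies above all others, at 194 to 239 TPM in controls and 144 to 153 TPM in leachate pools, and the groups of nbr1a do not overlap while those of nbr1b do.

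On the TPM scale, which carries no TMM scaling, the median log2 ratio of group mean TPM was -0.17 over the 49 genes and 0.17 over all tested genes. The autophagy genes lay below the median gene on this scale too. Of the 49, 37 had a lower mean TPM in leachate pools, as had 7654 of all 23761 tested genes. Among the called genes, the groups of ulk1b, rb1cc1, pik3r4, atg2b, atg9a, atg7 and gabarapl2 overlapped in TPM. In controls the order by mean TPM ran from gabarapb (212 ± 23.7) over map1lc3a (77.8 ± 8.45), sqstm1 (69.6 ± 2.38), map1lc3b (62.3 ± 6.49), gabarapa (53.5 ± 3.91), atg13 (47.3 ± 8.19) and wdr45b (45.7 ± 6.52) down to map1lc3c (0.746 ± 0.231). Among these 7 leading genes the control pools of neighbours overlapped, except between gabarapb and map1lc3a and, narrowly, between map1lc3a (72.4 TPM at lowest) and sqstm1 (72.1 TPM at highest).

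The remaining members did not pass the test. tfeb, the transcription factor that switches on lysosomal and autophagy genes in mammals, was at 12.6, 14.6 and 14.96 against 13.9, 14.1 and 17.5 CPM (log2 change 0.11 ± 0.13, adjusted p = 0.627). epg5, which encodes a tether for fusion with the lysosome, was at 47.4, 65.3 and 49.0 against 45.8, 47.7 and 47.8 CPM (log2 change -0.19 ± 0.13, adjusted p = 0.365), with control 2 apart from the other controls. Of the genes taken through the description, dram1, a lysosomal membrane protein gene, was at 2.53, 1.74 and 3.01 against 2.32, 3.55 and 3.94 CPM (log2 change 0.42 ± 0.26, adjusted p = 0.316). dram2b was at 29.0 ± 2.36 against 26.1 ± 3.98 CPM (adjusted p = 0.492) and soga1 at 20.7 ± 2.45 against 16.0 ± 1.49 CPM (log2 change -0.38 ± 0.13, adjusted p = 0.0709).

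Copies of a gene and related genes were also compared with each other, as a description. The ratio of 2 genes within a sample does not depend on the scaling. It was followed per pool for 12 pairs, chosen after the values were seen, and some genes enter several pairs. With 3 pools against 3 the smallest two-sided exact permutation p is 0.1 (0.15 adjusted over the 12 pairs), so no pair could pass this exact test at 0.05. The log2 ratio of nbr1a to nbr1b was -0.0051, 0.26 and -0.020 in controls and -0.31, -0.48 and -0.33 in leachate pools. That of ulk1b to ulk1a was 0.71, 0.43 and 0.54 against 0.11, 0.20 and 0.049. That of gabarapb to gabarapa was 1.98, 1.84 and 1.94 against 1.43, 1.54 and 1.56. In these 3 pairs, as in 8 of the 12, the groups did not overlap. The share among ratios of other gene pairs was not computed. The ratio of atg4b to atg4c moved furthest, from 0.039, 0.30 and 0.12 to -0.42, -0.73 and -0.93. In 4 pairs the groups overlapped, among them wdr45b to wdr45 (0.98 ± 0.045 against 1.03 ± 0.22) and atg9b to atg9a (1.11 ± 0.22 against 0.83 ± 0.069).

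Calls among the members are given here by abundance, beside all tested genes within the same range of mean CPM. Of the 25 more abundant by mean CPM (24.4 to 197 CPM) 14 were lower (56%, against 13.3% of 4790 genes in that range), and the median log2 fold change was -0.40 with a median SE of 0.12. Of the 24 less abundant (0.633 to 24.1 CPM) 5 were lower (20.8%, against 5.98% of 16583 genes), at a median of -0.27 and a median SE of 0.14. The share called was higher at higher abundance in all genes as in the members, and the difference between the 2 sets of members was not tested. By gene length, derived from the counts and FPKM, 9 of the 25 longer members were lower (median log2 fold change -0.24), and 10 of the 24 shorter ones (median -0.46). Over all tested genes 7.29% were called lower, and the share within each length range was not computed. The difference between longer and shorter members was not tested. Across the 49 genes the Spearman correlation of length with log2 fold change was 0.14, as a description of genes that share the same 6 libraries. Over all 23761 tested genes it was -0.0103.

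The count of lower members moved with the samples used. It was 9 of 49 without control 1 (18.4%, against 3.8% of all tested genes), 10 without leachate 2 (20.4% against 3.75%) and 9 without leachate 3 (18.4% against 3.87%). It was 10 (20.4% against 3.65%) with library totals as the scaling, a setting in which the medians of the log2 fold change were 0.13 for all genes and -0.22 for autophagy genes. Of the 19 called genes, 8 were called in all 17 alternatives: atg101, pik3r4, atg9a, atg9b, wdr45, atg4b, gabarapb and nbr1a. No autophagy gene was called higher by edgeR, DESeq2 or limma-voom in any of the 17.

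**Figure D5:**
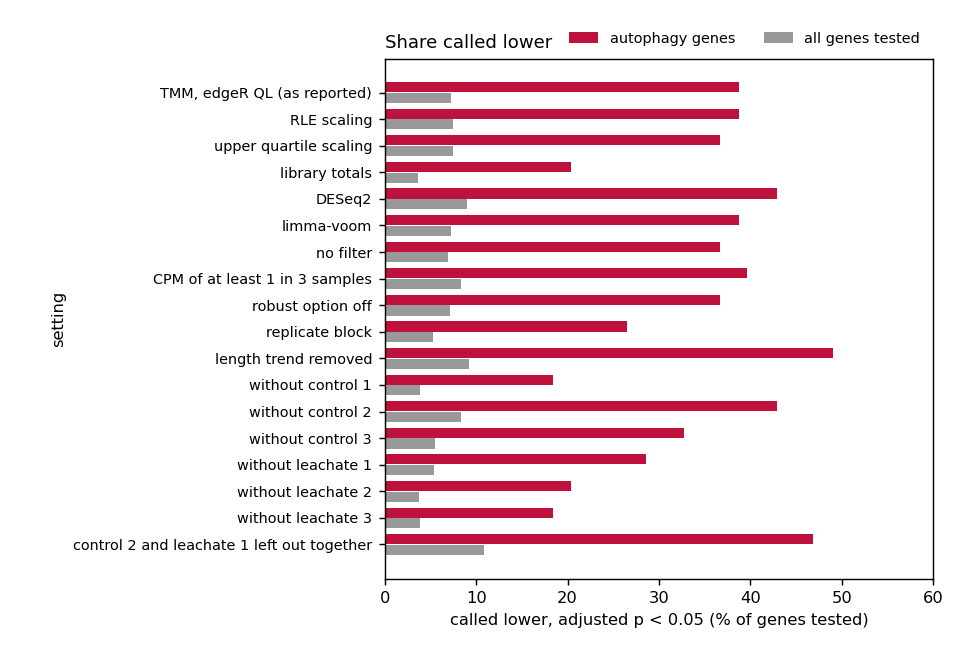
Bars give the percentage of tested genes called lower at an adjusted p under 0.05, for the autophagy genes (red) and all genes (grey), under the reported setting (top) and 17 alternatives. The red bar runs from 18.4% to 49% and the grey one from 3.65% to 10.9%.

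Genes around autophagy were read from 5 lists of components and regulators that the symbol rule does not take. Of 38 symbols in the list of TORC1, TSC and AMPK regulators, 34 were measured. In this list 6 were lower (17.6%, against 7.29% of all tested genes) and 0 higher (against 7.87%). At an unadjusted p under 0.05, 8 were lower and 1 higher (against 14.6% and 15.2% of all tested genes). With DESeq2, limma-voom, library totals or a filter of a CPM of 1 in 3 samples, 1 was higher. The same held with the gene length trend removed and with control 2 and leachate 1 both left out. Of all tested genes, 1888 to 2809 were higher in these settings. The median log2 fold change was -0.061. sesn1, which encodes sestrin 1, an inhibitor of TORC1, was at 880, 895 and 766.1 CPM in controls and 384, 451 and 465 CPM in leachate pools (log2 change -0.97 ± 0.15, adjusted p = 0.00175). tsc1a, at 55.7 ± 3.95 against 36.3 ± 0.922 CPM (log2 change -0.62 ± 0.10, adjusted p = 0.00287), and tsc2, at 63.5 ± 1.01 against 44.6 ± 3.01 CPM (log2 change -0.51 ± 0.10, adjusted p = 0.00785), encode the complex that restrains TORC1. The calls of sesn1 and tsc1a held in all 17 alternatives, and that of tsc2 was lost with library totals and without leachate 2 (adjusted p up to 0.0711). The kinase gene mtor itself was at 46.2 ± 8.29 against 44.8 ± 2.19 CPM (adjusted p = 0.863). The further called genes were akt1s1, flcn and tsc1b (adjusted p = 0.0219, 0.0381 and 0.0445), with calls that held in 12, 11 and 9 alternatives. In the other direction, deptor was at 53.9 ± 0.573 against 67.4 ± 1.3 CPM (log2 change 0.32 ± 0.10, adjusted p = 0.0516) and was not called. Of the 34 genes, 22 had a log2 fold change below 0 and 12 above. The number lower was 3 without control 1, control 3 or leachate 1 (against 3.8%, 5.52% and 5.38% of all tested genes). It was 2 without leachate 2 (against 3.75%) and 4 without leachate 3 (against 3.87%). It was 9 when control 2 and leachate 1 were both left out (against 10.9%).

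Receptors for mitochondria, endoplasmic reticulum and other cargo formed a further list, together with the enzyme genes pink1, tbk1 and usp30, which are not receptors. Of 23 measured, 9 were lower (39.1%, against 7.29% of all tested genes) and 2 higher (8.7%, against 7.87%). The median log2 fold change was -0.21. The 9 include pink1 (adjusted p = 0.0134) and tbk1 (adjusted p = 0.021). calcoco2, a receptor gene whose mammalian protein captures bacteria and mitochondria, was at 36.2, 34.3 and 34.9 against 15.4, 14.9 and 15.5 CPM (log2 change -1.2 ± 0.10, adjusted p = 4.5e-05). calcoco1b, related to a mammalian receptor for endoplasmic reticulum and Golgi, was at 76.7, 94.7 and 77.7 against 37.2, 34.4 and 35.2 CPM (log2 change -1.22 ± 0.12, adjusted p = 1.09e-04). bnip3, a mitophagy receptor gene, was at 72.8, 51.6 and 64.1 against 31.1, 32.5 and 32.4 CPM (log2 change -0.97 ± 0.13, adjusted p = 7.61e-04). The log2 fold changes of calcoco2 and calcoco1b lay below that of each of the 49 autophagy genes. The 2 that rose encode other mitophagy receptors: phb2b, an inner-membrane prohibitin, was at 16.1, 15.2 and 17.6 against 28.4, 30.7 and 29.2 CPM (log2 change 0.85 ± 0.11, adjusted p = 5.37e-04). bcl2l13 was at 16.8, 18.8 and 19.4 against 32.9, 27.8 and 29.2 CPM (log2 change 0.71 ± 0.12, adjusted p = 0.00236). The calls of calcoco2, calcoco1b, bnip3, phb2b and bcl2l13 held in the 17 alternatives, that of pink1 in 14 and that of tbk1 in 13. The number lower was 5 without control 1 or leachate 3 and with library totals (against 3.8%, 3.87% and 3.65% of all tested genes).

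A list of 21 genes covered fusion of the autophagosome with the lysosome and related membrane steps. Of these, 5 were lower (23.8%, against 7.29% of all tested genes) and 1 higher (4.76%, against 7.87%). The median log2 fold change was -0.24. sh3glb1b, a membrane-curvature protein gene, was at 48.6, 41.6 and 55.3 against 28.8, 33.3 and 31.4 CPM (log2 change -0.64 ± 0.12, adjusted p = 0.00612). nrbf2a, a further subunit gene of the class III kinase complex, was at 6.29, 7.0 and 7.2 against 2.14, 3.83 and 3.76 CPM (log2 change -1.08 ± 0.22, adjusted p = 0.00732). sh3glb1a was also lower (log2 change -0.45 ± 0.12, adjusted p = 0.0264), a call lost in 6 of the alternatives. The fusion genes vps41 (log2 change -0.45 ± 0.12, adjusted p = 0.0266) and rab7 (log2 change -0.50 ± 0.14, adjusted p = 0.0385) were lower too. Each of these 2 was called in 11 of the 17 alternatives. tmem41b, a lipid scramblase gene that works with vmp1, rose from 4.9, 5.31 and 6.18 to 10.99, 7.87 and 9.88 CPM (log2 change 0.81 ± 0.16, adjusted p = 0.00752). The counts of lower genes were 2 without control 1 or leachate 3 (against 3.8% and 3.87% of all tested genes). They were 3 without control 3 or leachate 2 (against 5.52% and 3.75%). The count was 8 when control 2 and leachate 1 were both left out (against 10.9%). In that setting and without leachate 1, 2 genes were higher (against 2648 and 1360 of all tested genes).

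Lysosomal genes were called at shares near those of all genes. Of 19 measured membrane and enzyme genes, 1 was lower (5.26%, against 7.29% of all tested genes) and 2 were higher (10.5%, against 7.87%), with a median log2 fold change of -0.017. The peptidase gene tpp1 was at 48.8 ± 2.44 against 36.9 ± 2.29 CPM (log2 change -0.40 ± 0.10, adjusted p = 0.0238). The proton pump subunit genes atp6v1ba (73.9 ± 2.29 against 95.1 ± 2.56 CPM, adjusted p = 0.0386) and atp6v0d1 (62.4 ± 4.43 against 80.3 ± 4.45 CPM, adjusted p = 0.0469) were higher. These 2 calls were lost in 5 and 6 of the 6 settings that left out 1 sample, and that of tpp1 in 4 of them. ctsd, a main lysosomal protease gene, was at 297 ± 41.7 against 279 ± 24.98 CPM (adjusted p = 0.741). The number higher was 0 without any 1 of control 1, control 3, leachate 1, leachate 2 and leachate 3 (against 970 to 1551 of all tested genes). It was 1 without control 2 (against 2063 of all tested genes). The number lower was 0 without any 1 of control 1, leachate 1, leachate 2 and leachate 3 (against 3.75% to 5.38% of all tested genes). It was 3 without control 2 (against 8.33%), and 4 when control 2 and leachate 1 were both left out (against 10.9%). The difference between the lysosomal list and the autophagy genes was not tested.

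Among 18 transcription regulators linked to autophagy genes, 2 were higher (11.1%, against 7.87% of all tested genes) and 0 lower (against 7.29%). At an unadjusted p under 0.05, 2 were lower and 2 higher (against 14.6% and 15.2% of all tested genes). After adjustment, 1 was lower with DESeq2 (against 8.96% of all tested genes) and with the gene length trend removed (against 9.17%). The same held without control 2 (against 8.33%) and without control 3 (against 5.52%). With control 2 and leachate 1 both left out, 2 were lower (against 10.9%). The median log2 fold change was -0.0058. The share called higher was near that of all genes. The 2 higher genes encode repressors of the circadian clock. nr1d1, whose product has been described to act on autophagy genes in zebrafish, was at 3.99, 2.94 and 4.32 CPM in controls and 55.2, 58.3 and 34.2 CPM in leachate pools (log2 change 3.71 ± 0.23, adjusted p = 3.26e-05). nr1d2b was at 76.1, 78.1 and 58.1 against 189, 194 and 180.2 CPM (log2 change 1.41 ± 0.14, adjusted p = 1.12e-04). Both calls held in all 17 alternatives. Their part in the levels of the autophagy genes was not tested. The related gene nr1d2a did not pass the test. It was at 121, 39.9 and 209.5 against 170, 147 and 105 CPM (log2 change 0.19 ± 0.63, adjusted p = 0.884), and its control pools varied widely. foxo3b, a FoxO factor gene, was at 142 ± 10.5 against 142 ± 12.1 CPM (adjusted p = 0.986).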

How the data were processed

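Per the labels' protocols, total RNA (integrity number above 7.0) went through ribosomal RNA depletion and a stranded kit. The submitters' processing notes list HISAT2, StringTie 2.1.3b, DESeq2 and GRCz11, without saying what each was used for. The method of counting per gene and its use of strand are not given in the sources used here. Values of overlapping genes and close copies are therefore uncertain. The authors deposited read counts, TPM and FPKM per gene and sample, per the file headers. The table keeps genes with a count of 1 or more in all 6 samples. The deposited TPM served to compare levels between genes, and the deposited FPKM, with the counts, gave a relative gene length.

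The test was edgeR 4.0.16 (R 4.3.3) on the deposited counts, with TMM scaling, filterByExpr, robust quasi-likelihood F tests and Benjamini-Hochberg adjustment over 23761 genes. An SE is the size of the log2 fold change over the square root of F. Each group has 3 pools described as biological replicates, and their counts differed beyond counting error (chi-square over degrees of freedom 8.53 or more).

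The 17 alternatives changed the scaling (RLE, upper quartile, library totals), the tool (DESeq2 1.42.0 or limma-voom, limma 3.58.1), the filter (none, or a CPM of 1 in 3 samples) or the robust option, added the replicate number as a block, removed a trend with gene length, left out each sample, or left out control 2 and leachate 1 together. An adjusted p under 0.01 and membership by symbol alone were also tried. The genes, lists and alternatives were chosen with earlier results of these data known. Of 133 symbols in the 5 pathway lists, 115 were measured. The naming rule took each called autophagy gene, 17 preset ones, the most abundant gene of a role group without a call, and up to 3 called genes per direction and pathway list. The other autophagy genes were added for completeness. After their values were seen, mtor, akt1s1, flcn, tsc1b, deptor, foxo3b, ctsd, sh3glb1a, nr1d2a, pink1, tbk1, usp30, vps41 and rab7 were added. So were the pairs of copies and related genes. Promoter motifs, sequences and coordinates were not analysed here.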

Additional observations from a re-analysis of the deposited data

How the results depend on the processing

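The smallest change called among the 49 genes was that of atg7 (log2 -0.36), and a gene without a call is not shown to be unchanged. The median log2 fold change of the autophagy genes stayed below 0 in all 17 alternatives, between -0.367 and -0.315 with 1 sample left out and at -0.217 with library totals. Library totals also moved the calls over all genes to 2809 higher and 868 lower (76.4% higher, against 51.9%) and the lower autophagy genes to 10. At an adjusted p under 0.01 the counts were 796 higher and 692 lower over all genes and 9 lower autophagy genes. With control 2 and leachate 1 left out together 2606 genes were lower. With 1 sample left out the counts ran from 970 to 2063 higher and from 896 to 1996 lower over all genes, and from 9 to 21 for lower autophagy genes. These fits use fewer samples. The replicate number as a block gave 1317 higher and 1248 lower genes and 13 lower autophagy genes, the calls of ulk1b, atg13, rb1cc1, atg12, atg7 and sqstm1 being lost (adjusted p from 0.0508 to 0.111 in edgeR's quasi-likelihood test). Same-numbered samples did not deviate together (correlations of -0.0775, -0.157 and 0.0371 in deviations from the group means), and no sample of the 3 controls correlated best with its own number, so the numbers are not taken as pairs.

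The sign changed only in genes near 0, none of them called. ulk1a was at -0.00048 with RLE, -0.00273 with upper quartile scaling and -0.000404 with DESeq2, and between -0.0621 and 0.0779 with 1 sample left out. uvrag was at 0.0492 with library totals and between -0.151 and 0.00444 with 1 sample left out. vmp1 was at -0.0395 and atg4da at -0.164 without control 2 and leachate 1 together, and with 1 sample left out they lay between -0.00745 and 0.222 and between -0.159 and 0.174. tfeb lay between -0.000861 and 0.173. The cause of these shifts was not tested.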
